A study of Mus musculus with 16 samples.

Results

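The genes described here code for the machinery with which a liver cell burns fatty acids, makes ketone bodies and stores or releases fat, together with direct targets of PPARα, the nuclear receptor that switches much of this machinery on. A list of 39 such genes was followed over 4 genotypes of newborn mouse liver. A gene was measured where a probe set (a group of array probes summarised as 1 value) carried its symbol and no other, and among several such probe sets the one brightest on average over the 16 arrays was used. That gave 37 of the 39 genes, out of 18820 genes measured by the same rule. Acadvl shares its probe set with Dvl2, and Acsl1 had no probe set named for it here. Neither entered the expression results, although both are among the listed genes in the promoter counts below.

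Whole-liver RNA of 16 male mice, 7 days old and on a mixed C57/BL6 - SV129Ola background, was measured on one-colour whole-transcript arrays, 1 animal per array. The genotypes, each with 4 animals, were TRAF2/Casp-8LPC-KO (below, TRAF2/Casp-8 KO), TRAF2/Casp-8LPC-KO/RIPK3-/- (RIPK3 triple KO), TRAF2/Casp-8/IKKbetaLPC-KO (IKKβ triple KO) and WT. In the 3 KO genotypes, alfp-Cre deletes floxed Traf2 and Casp8 in liver parenchymal cells (LPC). The IKKβ triple KO loses floxed Ikkβ in the same cells, whereas the Ripk3 deletion of the RIPK3 triple KO is constitutive and so affects every cell of the animal. WT mice were littermates with the floxed alleles and no Cre. TRAF2 couples TNF receptors to their downstream kinases, caspase-8 triggers apoptosis from death receptors, RIPK3 drives necroptosis and IKKβ activates canonical NF-κB; the title of the series names NF-κB and necroptosis in liver cancer as its subject.

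A newborn mouse lives on milk, which is rich in fat, and its liver oxidises fatty acids and exports ketone bodies from birth on. Fatty acids are activated to acyl-CoA, carried into mitochondria by the carnitine shuttle, and shortened in rounds of dehydrogenation, hydration, dehydrogenation and thiolysis; the acetyl-CoA can leave the liver as ketone bodies. PPARα, as a dimer with RXR, is activated by fatty acids and raises the transcription of many of these genes, while perilipins and their partners hold back the fat stored in droplets.

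Values are the authors' log2 signals after RMA (background correction, normalisation and summary of probes), so a difference of 1 is a 2-fold change. A signal of 1 probe set is not set against that of another. Differences were tested with limma in 1 model of all 16 arrays and called where the p-value, adjusted over all 35556 probe sets, was under 0.05; each adjusted p below is from that model, each ± beside a difference is its SE, and each ± beside a mean is an SD over 4 animals. The p-values measure the spread between animals, and precision is limited by how many arrays there were.

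The labels were checked on the targeted genes. Casp8 was 8.50 to 9.11 on the 12 KO arrays, against 9.76 to 10.07 in WT. Ripk3 lay at 4.07 to 4.40 in the RIPK3 triple KO and at 5.62 to 6.42 on the other arrays, and Ikbkb at 7.07 to 7.30 in the IKKβ triple KO and at 7.50 to 8.06 on the others. Traf2 went against its labels: it was 7.07 to 7.44 on arrays labelled TRAF2/Casp-8 KO, 7.18 to 7.53 on those labelled RIPK3 triple KO and 6.87 to 6.92 on those labelled IKKβ triple KO, against 6.21 to 6.40 on those labelled WT. Whether its probes lie in the deleted part of the gene is not given in the sources used here, and genotype names below are those of the labels. Correlations between arrays of a genotype were 0.981 to 0.991. The tissue label was checked on hepatocyte markers, of which 8 of 10 were measured, and their mean was 12.68 to 13.02 over the 16 arrays. In each of 2 livers, macrophage markers were high and many of the 37 genes were low. The mean over 12 macrophage markers was 9.57 in RIPK3 triple KO replicate 4, against 8.95 to 9.06 in the others of its genotype. It was 9.68 in WT replicate 1, against 8.81 to 8.86 in the other WT livers. Weights that limma estimates from the spread of each array were 0.689 for RIPK3 triple KO replicate 4 and 0.461, the lowest, for WT replicate 1. They were 0.613 for RIPK3 triple KO replicate 1, whose hepatocyte mean of 12.68 was the lowest, 0.597 for IKKβ triple KO replicate 1 and over 0.9 for the other 12 arrays. As read from the array names, each genotype filled its own part of the plate, so plate position and genotype cannot be told apart in any comparison below.

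In the RIPK3 triple KO 4 of the 37 genes (10.8%), G0s2, Fabp1, Acadl and Plin2, fell relative to WT. In that comparison 3.11% of all genes were called. The shares of all genes here and below were not matched to the 37 in signal level. G0s2 was higher in the IKKβ triple KO than in the RIPK3 triple KO, so every call placed the RIPK3 triple KO lower. None of the 37 passed between TRAF2/Casp-8 KO and WT, between either triple KO and TRAF2/Casp-8 KO, or between IKKβ triple KO and WT. Over most of the beta-oxidation enzymes the differences from WT were below 0 in each KO genotype, and Acadl in the RIPK3 triple KO was the 1 that passed.

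**Figure D1:**
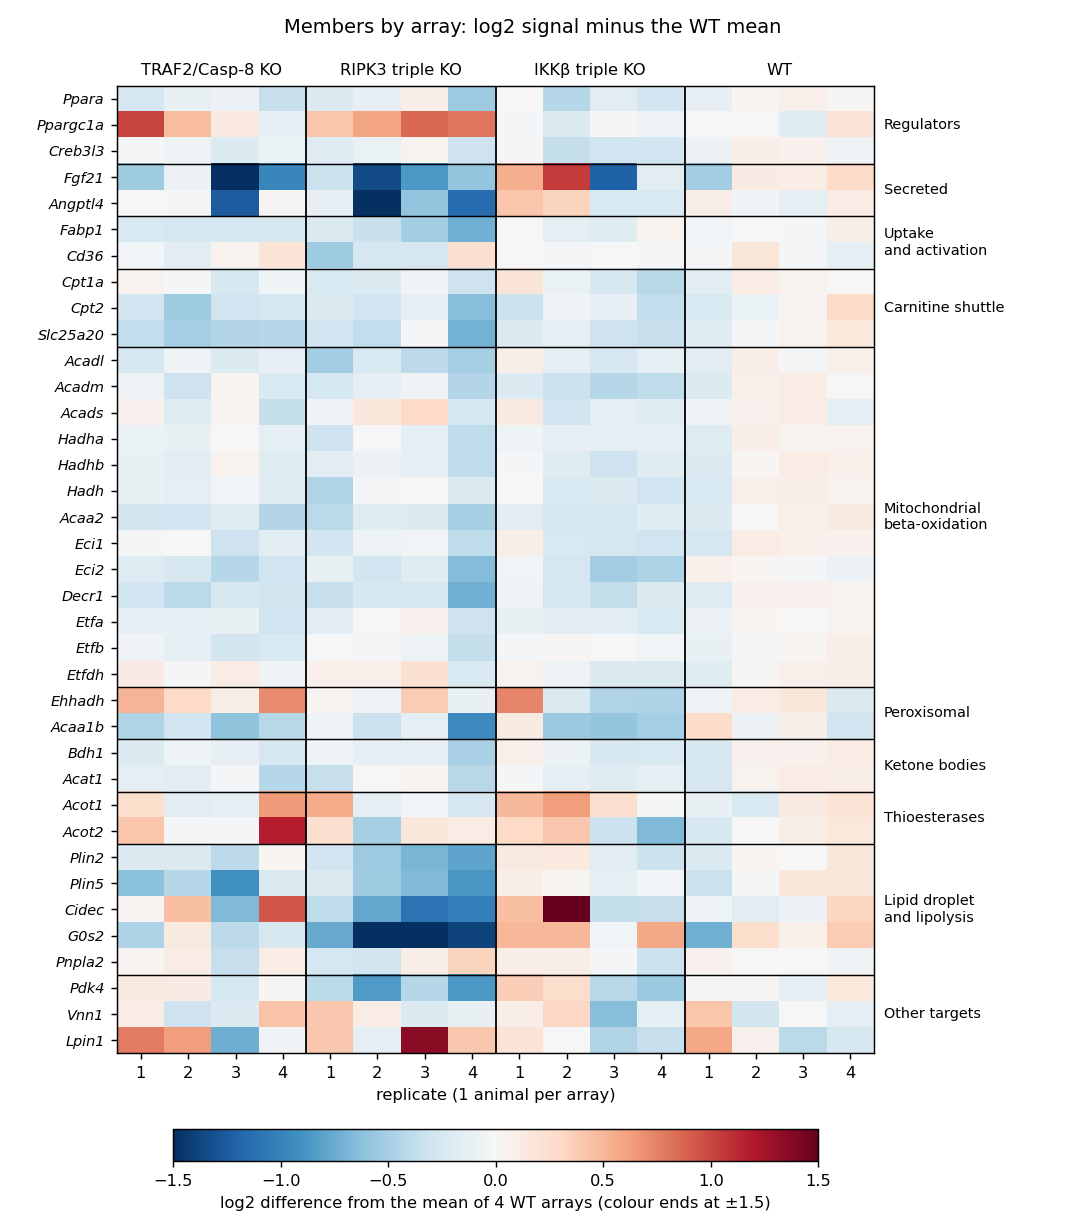
Log2 signal of the 37 genes (rows, grouped by role) on each of the 16 arrays (columns, grouped by genotype) minus the mean of the 4 WT arrays, with blue lower and red higher. The darkest blue of the lipid droplet genes lies in the RIPK3 triple KO, where G0s2 was 7.33 to 8.66 against 8.70 to 9.80 in WT.

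The promoters shown are those of the 4 genes that passed the threshold in any comparison. PPARα and RXR bind as a dimer to a direct repeat of the half-site AGGTCA with 1 base between the copies (DR1). Each line gives the 250 bases before the transcription start in RefSeq's promoter table for GRCm38.p6, 5′ to 3′ on the strand of the gene. Capitals mark a DR1 with up to 2 mismatches over the 12 bases of its half-sites, on either strand; the spacer may be any base. Acadl is at chr1:66863310-66863559 on the minus strand, Fabp1 at chr6:71199629-71199878 on the plus strand, G0s2 at chr1:193273189-193273438 on the minus strand and Plin2 at chr4:86670060-86670309 on the minus strand. The start in that table lies inside the span that RefSeq's gene table gives for Plin2, so part of the Plin2 window is within that span.
Acadl: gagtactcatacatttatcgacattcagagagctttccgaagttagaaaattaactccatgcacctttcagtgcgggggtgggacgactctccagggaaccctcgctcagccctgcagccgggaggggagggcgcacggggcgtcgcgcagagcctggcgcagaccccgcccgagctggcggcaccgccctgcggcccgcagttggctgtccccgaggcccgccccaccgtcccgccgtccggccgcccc
Fabp1: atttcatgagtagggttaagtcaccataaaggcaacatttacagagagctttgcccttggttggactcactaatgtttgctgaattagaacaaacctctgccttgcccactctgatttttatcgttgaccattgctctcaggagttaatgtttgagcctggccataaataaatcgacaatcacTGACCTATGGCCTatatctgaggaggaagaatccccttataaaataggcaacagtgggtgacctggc
G0s2: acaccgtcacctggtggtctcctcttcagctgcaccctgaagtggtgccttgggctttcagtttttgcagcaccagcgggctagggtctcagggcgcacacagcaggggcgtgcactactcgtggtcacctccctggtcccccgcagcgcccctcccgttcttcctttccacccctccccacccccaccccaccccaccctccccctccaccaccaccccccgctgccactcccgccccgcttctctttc
Plin2: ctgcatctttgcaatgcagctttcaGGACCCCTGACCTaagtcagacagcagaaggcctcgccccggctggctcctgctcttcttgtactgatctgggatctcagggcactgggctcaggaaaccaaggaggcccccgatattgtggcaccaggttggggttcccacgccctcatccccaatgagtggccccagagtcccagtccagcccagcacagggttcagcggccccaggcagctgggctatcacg

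Fabp1 held a DR1 with 1 mismatch, 67 to 55 bases before its start and on the opposite strand. Plin2 held one with 2 mismatches, 225 to 213 bases before the start in the promoter table and also on the opposite strand. Over all 34 listed genes with a promoter in the table, 5 (14.7%) held such a repeat within these 250 bases, against 1005 of 27025 genes (3.72%) in the whole table. The other three were Cd36, Etfa and Creb3l3, each with 2 mismatches. The Cd36 window and the Creb3l3 window with the match lie inside the spans of those genes in the gene table. Another Creb3l3 window, just outside that span, held no match. A gene with several starts in the promoter table was counted if any of its windows matched. With at most 1 mismatch the counts were 1 of 34 (2.94%) and 153 of 27025 (0.566%), and no listed gene held an exact copy, against 11 genes (0.0407%) in the table. A match is a description of these letters and not a bound site, and a window without one says nothing on binding elsewhere.

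G0s2, a lipid droplet gene, gave the largest difference of the 37 in each of the 3 comparisons of the RIPK3 triple KO with another genotype. G0s2, an inhibitor of the triglyceride lipase ATGL and a known PPAR target, is on chromosome 1 at 193272160 to 193273188. Its signal was 8.96, 9.55, 9.03 and 9.17 in TRAF2/Casp-8 KO livers, 8.66, 7.89, 7.33 and 8.02 in RIPK3 triple KO livers, 9.92, 9.91, 9.38 and 9.99 in IKKβ triple KO livers, and 8.70, 9.68, 9.49 and 9.80 in WT livers. All 4 RIPK3 triple KO livers were below every liver of the other genotypes, although RIPK3 triple KO replicate 1 was within 0.1 of WT replicate 1. G0s2 fell to 7.98 ± 0.55 in the RIPK3 triple KO, against 9.42 ± 0.50 in WT, a log2 difference of −1.44 ± 0.27 (2.71-fold lower, adjusted p = 0.0112). It was 9.80 ± 0.28 in the IKKβ triple KO against the same 7.98 in the RIPK3 triple KO, higher by 1.82 ± 0.27 (3.54-fold, adjusted p = 0.0038). Between RIPK3 triple KO and TRAF2/Casp-8 KO the difference was −1.20 (95% interval −1.78 to −0.62, adjusted p = 0.0966) and did not pass, although the groups did not overlap. Both G0s2 calls held when any 1 array of the pair was left out (adjusted p up to 0.0427 against WT and up to 0.0172 between the triple KOs). In a model of only the RIPK3 triple KO and WT arrays the first was lost (adjusted p = 0.0827).

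Plin2, the perilipin that coats lipid droplets in hepatocytes, spans 86626910 to 86670217 on chromosome 4. Its signal was 10.91, 10.90, 10.72 and 11.14 in TRAF2/Casp-8 KO livers, 10.82, 10.57, 10.43 and 10.32 in RIPK3 triple KO livers, 11.24, 11.26, 10.96 and 10.79 in IKKβ triple KO livers and 10.91, 11.14, 11.12 and 11.28 in WT livers. The RIPK3 triple KO livers lay below the WT livers without overlap, and replicate 1 of the RIPK3 triple KO overlapped the lower ends of the other two KO genotypes. Plin2 fell by 0.58 ± 0.14 on the log2 scale in the RIPK3 triple KO relative to WT (1.49-fold lower, adjusted p = 0.0388). Between IKKβ triple KO and RIPK3 triple KO the difference was 0.53 (adjusted p = 0.0689).

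Plin5, a perilipin that tethers droplets to mitochondria, showed another order of genotypes. It was 6.91, 7.10, 6.61 and 7.30 in TRAF2/Casp-8 KO livers, 7.31, 6.99, 6.87 and 6.65 in RIPK3 triple KO livers, 7.62, 7.56, 7.38 and 7.49 in IKKβ triple KO livers and 7.20, 7.51, 7.69 and 7.70 in WT livers. All IKKβ triple KO livers were above all TRAF2/Casp-8 KO and RIPK3 triple KO livers, and only WT replicate 1 overlapped the TRAF2/Casp-8 KO and RIPK3 triple KO ranges. The differences were −0.54 ± 0.16 between TRAF2/Casp-8 KO and WT (adjusted p = 0.103), −0.57 between RIPK3 triple KO and WT (0.0851), 0.53 between IKKβ triple KO and TRAF2/Casp-8 KO (0.216) and 0.56 between IKKβ triple KO and RIPK3 triple KO (0.104), so none passed. Without WT replicate 1, Plin5 passed in TRAF2/Casp-8 KO (adjusted p = 0.0493) and in RIPK3 triple KO (0.0369) relative to WT, and without RIPK3 triple KO replicate 1 it passed in RIPK3 triple KO relative to WT (0.0473).

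Cidec, which fuses lipid droplets, varied most of all between animals of a genotype. It was 5.16, 5.57, 4.46 and 6.06 in TRAF2/Casp-8 KO livers, 4.75, 4.35, 4.02 and 4.10 in RIPK3 triple KO livers, 5.58, 7.41, 4.77 and 4.78 in IKKβ triple KO livers and 5.06, 4.96, 5.04 and 5.45 in WT livers. The RIPK3 triple KO livers were lower than all WT and all IKKβ triple KO livers, by −0.82 (adjusted p = 0.473) relative to WT, and the IKKβ triple KO was higher than the RIPK3 triple KO by 1.33 (0.188). Pnpla2, which codes for ATGL itself, averaged 7.95 ± 0.22 in TRAF2/Casp-8 KO, 7.94 ± 0.29 in RIPK3 triple KO, 7.94 ± 0.20 in IKKβ triple KO and 7.97 ± 0.04 in WT livers, with every 95% interval of a difference between −0.34 and 0.30.

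**Figure D2:**
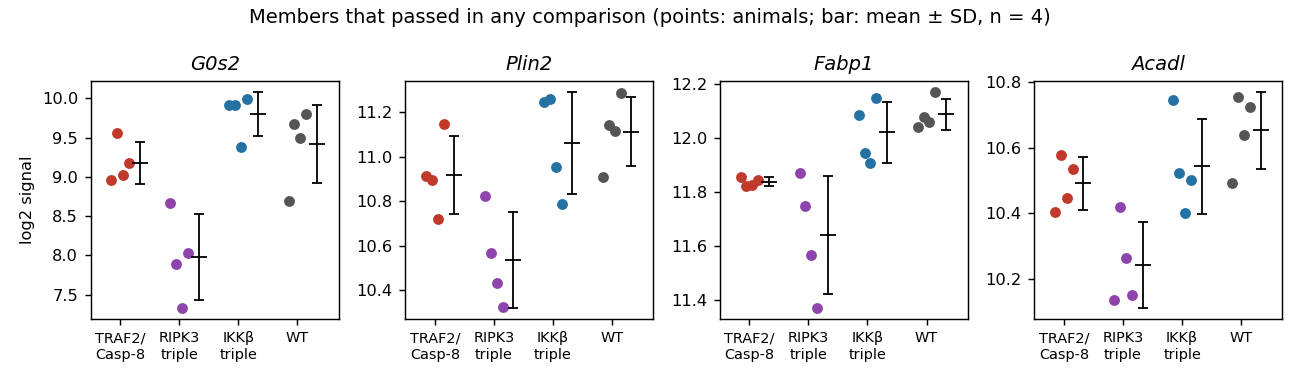
Log2 signal of the 4 genes that passed in at least 1 comparison, in each liver (points) by genotype, with the mean and SD of 4 animals as bars. The RIPK3 triple KO points lie below all WT points in each panel, with G0s2 at 7.33 to 8.66 against 8.70 to 9.80.

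Uptake of fatty acids was represented by Fabp1, the liver fatty acid binding protein, and Cd36, a fatty acid transporter. Fabp1, at 71199879 to 71205034 on chromosome 6, was 11.86, 11.82, 11.83 and 11.84 in TRAF2/Casp-8 KO livers, 11.87, 11.75, 11.57 and 11.37 in RIPK3 triple KO livers, 12.08, 11.94, 11.91 and 12.14 in IKKβ triple KO livers and 12.04, 12.08, 12.06 and 12.17 in WT livers. Every TRAF2/Casp-8 KO and RIPK3 triple KO liver was below every IKKβ triple KO and WT liver. Fabp1 fell by 0.45 ± 0.10 in the RIPK3 triple KO relative to WT (1.36-fold lower, adjusted p = 0.0235). The other differences did not pass, at −0.25 between TRAF2/Casp-8 KO and WT (adjusted p = 0.241), 0.38 between IKKβ triple KO and RIPK3 triple KO (0.0632) and 0.18 between IKKβ triple KO and TRAF2/Casp-8 KO (0.616). Cd36 was 8.10 to 8.48 in TRAF2/Casp-8 KO, 7.74 to 8.50 in RIPK3 triple KO, 8.23 to 8.26 in IKKβ triple KO and 8.14 to 8.45 in WT livers, all overlapping.

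The carnitine shuttle, which carries acyl groups across the inner mitochondrial membrane, was measured through all 3 of its listed members. Slc25a20, the carnitine-acylcarnitine translocase, was 9.60, 9.45, 9.52 and 9.53 in TRAF2/Casp-8 KO livers, 9.67, 9.59, 9.93 and 9.25 in RIPK3 triple KO livers, 9.75, 9.81, 9.64 and 9.61 in IKKβ triple KO livers and 9.78, 9.93, 10.01 and 10.11 in WT livers. All TRAF2/Casp-8 KO livers were below all IKKβ triple KO and WT livers, and RIPK3 triple KO livers spread over both ranges. The difference between TRAF2/Casp-8 KO and WT, −0.43 ± 0.12 (adjusted p = 0.075), had the smallest adjusted p of the 37 genes in that comparison and did not pass.

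Cpt2, which rebuilds acyl-CoA inside the mitochondrion, was 8.63, 8.38, 8.61 and 8.65 in TRAF2/Casp-8 KO livers, 8.71, 8.62, 8.79 and 8.27 in RIPK3 triple KO livers, 8.59, 8.86, 8.79 and 8.54 in IKKβ triple KO livers and 8.68, 8.82, 8.95 and 9.20 in WT livers. TRAF2/Casp-8 KO livers were again below all WT livers, by −0.34 ± 0.13 (adjusted p = 0.237). Cpt1a, the step at which malonyl-CoA controls entry, averaged 11.10 ± 0.12 in TRAF2/Casp-8 KO, 10.97 ± 0.10 in RIPK3 triple KO, 11.03 ± 0.26 in IKKβ triple KO and 11.17 ± 0.11 in WT livers, and the genotypes overlapped.

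Mitochondrial beta-oxidation was the largest group, with 13 genes measured. Of these, 12 had a difference below 0 between TRAF2/Casp-8 KO and WT, 11 between RIPK3 triple KO and WT and 13 between IKKβ triple KO and WT. The medians were −0.14 in TRAF2/Casp-8 KO, −0.20 in RIPK3 triple KO and −0.17 for the IKKβ triple KO. Of all 18820 genes, 9925, 9812 and 10119 were below 0 in the same comparisons, with medians of −0.01 in each. The 8 hepatocyte markers were below 0 as well, 8, 7 and 8 of them, with medians of −0.09, −0.11 and −0.05, and their part in these signs was not tested. These comparisons share the WT arrays, so their signs are not independent of each other. The 1 gene that passed was Acadl, long-chain acyl-CoA dehydrogenase, at 66830839 to 66863309 on chromosome 1. It was 10.40, 10.58, 10.45 and 10.54 in TRAF2/Casp-8 KO livers, 10.14, 10.42, 10.26 and 10.15 in RIPK3 triple KO livers, 10.75, 10.52, 10.40 and 10.50 in IKKβ triple KO livers and 10.49, 10.76, 10.64 and 10.72 in WT livers. No RIPK3 triple KO liver reached the lowest WT liver, while the ends of the ranges met those of the other KO genotypes. Acadl fell by 0.41 ± 0.09 in the RIPK3 triple KO relative to WT (1.33-fold lower, adjusted p = 0.0328), and was −0.25 relative to TRAF2/Casp-8 KO (adjusted p = 0.377).

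Acaa2, the mitochondrial thiolase, was 11.62, 11.61, 11.72 and 11.47 in TRAF2/Casp-8 KO livers, 11.50, 11.72, 11.69 and 11.40 in RIPK3 triple KO livers, 11.75, 11.65, 11.63 and 11.71 in IKKβ triple KO livers and 11.69, 11.90, 11.98 and 12.03 in WT livers. WT replicates 2 to 4 were above all 12 KO livers and WT replicate 1 was among them, with differences from WT of −0.30 in TRAF2/Casp-8 KO (adjusted p = 0.134), −0.32 in RIPK3 triple KO (0.0965) and −0.21 for the IKKβ triple KO (0.77). Decr1, which reduces the double bonds of unsaturated fatty acids, was 9.69, 9.58, 9.74 and 9.71 in TRAF2/Casp-8 KO livers, 9.64, 9.75, 9.73 and 9.26 in RIPK3 triple KO livers, 9.94, 9.74, 9.63 and 9.78 in IKKβ triple KO livers and 9.79, 10.05, 10.05 and 10.04 in WT livers. TRAF2/Casp-8 KO and RIPK3 triple KO livers were all below the WT livers, by −0.31 (adjusted p = 0.193) and −0.39 (0.0831). Eci2, an enoyl-CoA isomerase, was 9.85, 9.80, 9.61 and 9.74 in TRAF2/Casp-8 KO livers, 9.93, 9.75, 9.86 and 9.39 in RIPK3 triple KO livers, 9.995, 9.78, 9.52 and 9.58 in IKKβ triple KO livers and 10.11, 10.06, 10.02 and 9.95 in WT livers. Both TRAF2/Casp-8 KO and RIPK3 triple KO livers lay below WT without overlap, by −0.29 (adjusted p = 0.295) and −0.31 (0.256), and 1 IKKβ triple KO liver reached the WT range.

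The other nine genes of this group did not pass in any comparison. Acadm and Acads, the dehydrogenases for medium and short chains, had differences from WT of −0.14 and −0.11 in TRAF2/Casp-8 KO, −0.23 and 0.04 in RIPK3 triple KO and −0.34 and −0.12 in IKKβ triple KO. The −0.34 of Acadm was the lowest of the 13 genes in that comparison. Acadm was 10.80 to 11.02 in IKKβ triple KO livers and 11.03 to 11.34 in WT livers, which did not overlap (adjusted p = 0.628). Hadha and Hadhb, the subunits of the trifunctional protein, lay next to each other on chromosome 5 and differed from WT by −0.21 to −0.09 in the 3 KO genotypes; Hadhb has a second probe set that gave values within 0.0776 on every array. Hadh, the short-chain hydroxyacyl-CoA dehydrogenase, and Eci1, another enoyl-CoA isomerase, differed from WT by −0.20 to −0.12. Etfa, Etfb and Etfdh, which pass electrons from the dehydrogenases to the respiratory chain, differed from WT by −0.17 to 0.04, and Etfa was lower than WT without overlap in TRAF2/Casp-8 KO (10.11 to 10.29 against 10.32 to 10.46, adjusted p = 0.416) and in IKKβ triple KO (10.18 to 10.30, adjusted p = 0.81).

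**Figure D3:**
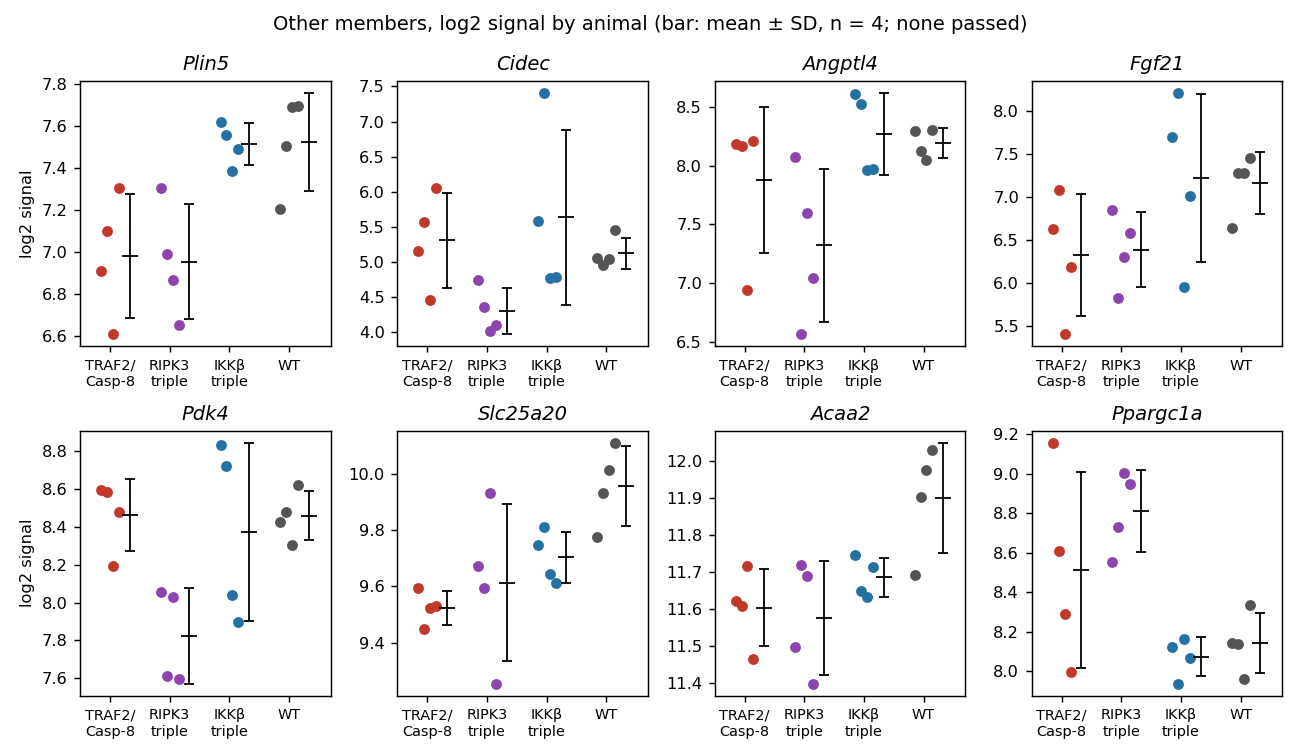
Log2 signal by genotype of 8 genes that passed in no comparison, as points per liver with the mean and SD of 4 animals. Plin5 shows TRAF2/Casp-8 KO and RIPK3 triple KO livers at 6.61 to 7.31 and IKKβ triple KO livers at 7.38 to 7.62, and Cidec and Fgf21 show the spread between animals of a genotype.

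Peroxisomal oxidation was represented by Ehhadh, the bifunctional enzyme, and Acaa1b, a thiolase; both are classical PPARα targets in rodents. Ehhadh was 10.11 to 10.72 in TRAF2/Casp-8 KO, 9.90 to 10.39 in RIPK3 triple KO, 9.54 to 10.74 in IKKβ triple KO and 9.79 to 10.17 in WT livers. Its difference of 0.41 between TRAF2/Casp-8 KO and WT (adjusted p = 0.463) ran opposite in sign to that of Acaa1b. Acaa1b was 9.55, 9.72, 9.41 and 9.59 in TRAF2/Casp-8 KO livers, 9.94, 9.68, 9.86 and 9.05 in RIPK3 triple KO livers, 10.14, 9.45, 9.42 and 9.50 in IKKβ triple KO livers and 10.29, 9.92, 10.10 and 9.72 in WT livers. The highest TRAF2/Casp-8 KO liver met the lowest WT liver, and the difference was −0.44 ± 0.20 (adjusted p = 0.336). In the IKKβ triple KO both genes were highest in replicate 1, 10.74 for Ehhadh and 10.14 for Acaa1b, and without that liver Ehhadh passed as lower in IKKβ triple KO livers than in TRAF2/Casp-8 KO livers (adjusted p = 0.0371).

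Ketone body genes differed little. Bdh1, which makes hydroxybutyrate from acetoacetate, averaged 11.10 ± 0.08 in TRAF2/Casp-8 KO, 11.07 ± 0.20 in RIPK3 triple KO, 11.14 ± 0.15 in IKKβ triple KO and 11.27 ± 0.16 in WT livers. Acat1, the mitochondrial acetoacetyl-CoA thiolase, averaged 12.19 ± 0.17 in TRAF2/Casp-8 KO, 12.20 ± 0.23 in RIPK3 triple KO, 12.26 ± 0.07 in IKKβ triple KO and 12.38 ± 0.17 in WT livers. All differences from WT were between −0.20 and −0.12, and none passed. The thioesterases Acot1 and Acot2, which split acyl-CoA in the cytosol and in mitochondria, are near-identical neighbours on chromosome 12, so their probe sets may read both and their values are uncertain. Acot2 was 9.28 to 10.49 in TRAF2/Casp-8 KO, 8.81 to 9.56 in RIPK3 triple KO, 8.65 to 9.71 in IKKβ triple KO and 9.07 to 9.46 in WT livers, and none of its differences passed. Acot1 was 5.14 to 5.94 in TRAF2/Casp-8 KO, 5.04 to 5.85 in RIPK3 triple KO, 5.28 to 5.93 in IKKβ triple KO and 5.07 to 5.50 in WT livers.

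Among the regulators, Ppara itself averaged 9.84 ± 0.12 in TRAF2/Casp-8 KO, 9.84 ± 0.27 in RIPK3 triple KO, 9.81 ± 0.18 in IKKβ triple KO and 10.03 ± 0.08 in WT livers. Its differences from WT were −0.22 to −0.19 and did not pass. Creb3l3, a liver transcription factor that acts with PPARα, differed from WT by −0.23 to −0.10. Ppargc1a, a coactivator of oxidative genes, ran the other way: it was 9.16, 8.61, 8.29 and 8.00 in TRAF2/Casp-8 KO livers, 8.55, 8.73, 9.01 and 8.95 in RIPK3 triple KO livers, 8.12, 7.94, 8.16 and 8.07 in IKKβ triple KO livers and 8.14, 8.14, 7.96 and 8.33 in WT livers. All RIPK3 triple KO livers were above all IKKβ triple KO and WT livers, and TRAF2/Casp-8 KO livers spread over both ranges. The difference was 0.67 ± 0.19 between RIPK3 triple KO and WT (adjusted p = 0.0872) and −0.74 ± 0.19 between IKKβ triple KO and RIPK3 triple KO (adjusted p = 0.0673), so neither passed.

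The secreted factors had large and uncertain differences. Fgf21, a hormone that PPARα induces in fasted and suckling liver, was 6.62, 7.08, 5.40 and 6.18 in TRAF2/Casp-8 KO livers, 6.84, 5.82, 6.30 and 6.58 in RIPK3 triple KO livers, 7.70, 8.21, 5.94 and 7.01 in IKKβ triple KO livers and 6.64, 7.28, 7.28 and 7.45 in WT livers. It was −0.84 in TRAF2/Casp-8 KO relative to WT, with a 95% interval that includes 0 (adjusted p = 0.414), and every pair of genotypes overlapped. Angptl4, an inhibitor of lipoprotein lipase, was 8.18, 8.17, 6.94 and 8.21 in TRAF2/Casp-8 KO livers, 8.07, 6.57, 7.60 and 7.05 in RIPK3 triple KO livers, 8.61, 8.53, 7.96 and 7.97 in IKKβ triple KO livers and 8.29, 8.12, 8.05 and 8.30 in WT livers. Of the RIPK3 triple KO livers, 3 were below all WT livers, and the difference was −0.87 (adjusted p = 0.2).

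Of the other targets, Pdk4, the kinase that shuts pyruvate dehydrogenase when fat is burnt, was 8.60, 8.59, 8.19 and 8.48 in TRAF2/Casp-8 KO livers, 8.06, 7.61, 8.03 and 7.60 in RIPK3 triple KO livers, 8.83, 8.72, 8.04 and 7.90 in IKKβ triple KO livers and 8.43, 8.48, 8.31 and 8.62 in WT livers. RIPK3 triple KO livers were below all TRAF2/Casp-8 KO and all WT livers, while IKKβ triple KO livers fell into a high and a low pair. The differences were −0.64 ± 0.19 between RIPK3 triple KO and TRAF2/Casp-8 KO (adjusted p = 0.253) and −0.63 between RIPK3 triple KO and WT (0.116). Vnn1, a pantetheinase, had differences of −0.14 to 0.05 over the 6 comparisons. Lpin1, a phosphatidate phosphatase that also acts as a coactivator, was 6.55 to 8.07 in TRAF2/Casp-8 KO, 7.14 to 8.64 in RIPK3 triple KO, 6.83 to 7.47 in IKKβ triple KO and 6.88 to 7.87 in WT livers.

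Taken over the 37 genes, the comparison of TRAF2/Casp-8 KO with WT, which asks what the joint loss of TRAF2 and caspase-8 does, gave 0 calls by limma, where 3.31% of all 18820 genes were called. At an unadjusted p under 0.05 there were 8 genes (21.6%), all lower, against 3089 of all genes (16.4%), 1469 of them lower. The median difference of the 37 was −0.14, against −0.01 over all genes, and 10 of 37 were above 0. Groups did not overlap for 6 of the 37 (16.2%), all lower in TRAF2/Casp-8 KO, where 11.6% of all genes did not overlap. Without WT replicate 1, 1 of the 37 passed. With that array and RIPK3 triple KO replicate 4 both left out, a pair chosen after seeing the data, 4 passed (Acaa2, Decr1, Plin5 and Slc25a20, all lower). For counts with arrays left out, here and below, the share of all genes is not given. A change in such a count therefore cannot be read as particular to the listed genes.

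Added loss of RIPK3, RIPK3 triple KO against TRAF2/Casp-8 KO, gave 0 calls of the 37 by limma, where 0.329% of all genes were called. At an unadjusted p under 0.05 there were 5 genes (13.5%), all lower, against 2091 of all genes (11.1%), 1081 of them lower. The median difference was −0.04, against −0.00 over all genes, with 12 of 37 above 0, and 2 genes (5.41%, G0s2 and Pdk4) did not overlap, where 6.87% of all genes did not. Without RIPK3 triple KO replicate 1, G0s2 passed in this comparison (adjusted p = 0.0487). Added loss of IKKβ, IKKβ triple KO against TRAF2/Casp-8 KO, also gave 0 calls, where 1.02% of all genes were called. There were 4 genes (10.8%) at an unadjusted p under 0.05, 2 higher (Plin5 and G0s2) and 2 lower (Ppargc1a and Ehhadh), against 2019 of all genes (10.7%). The median was −0.01 with 18 of 37 above 0, and 4 genes (10.8%; Plin5, Fabp1, Etfb and Slc25a20), all higher in the IKKβ triple KO, did not overlap, where 7.48% of all genes did not.

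RIPK3 triple KO against WT gave the 4 calls (10.8%) beside 3.11% of all genes. At an unadjusted p under 0.05 there were 15 genes (40.5%), 1 higher (Ppargc1a) and 14 lower, against 2929 of all genes (15.6%), 1459 of them lower. The median difference was −0.20, against −0.01 over all genes. Of the 37, 9 (24.3%) did not overlap, 8 of them lower, where 9.08% of all genes did not. The count of calls moved with single arrays. It was 7 without WT replicate 1, which added Acaa2, Decr1 and Plin5, and 2 (Fabp1 and G0s2) without RIPK3 triple KO replicate 4. It was 1 (G0s2) without WT replicate 2, 3 or 4 or without RIPK3 triple KO replicate 3. With WT replicate 1 and RIPK3 triple KO replicate 4 both left out it was 2 (Acadl and G0s2). Fabp1 missed the threshold without WT replicate 2, 3 or 4 or RIPK3 triple KO replicate 3 (adjusted p of 0.063, 0.0599, 0.0781 and 0.0736). Acadl missed it without WT replicate 2, 3 or 4 (0.104, 0.0804 and 0.102) or RIPK3 triple KO replicate 1, 3 or 4 (0.0837, 0.0732 and 0.0741), and Plin2 without WT replicate 2, 3 or 4 (0.0964, 0.0947 and 0.12) or RIPK3 triple KO replicate 2, 3 or 4 (0.0776, 0.107 and 0.0914).

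Markers of blood cell precursors were on average lower in the RIPK3 triple KO as well, with overlapping ranges. The mean of 9 erythroid markers measured of 11 was 5.27 to 7.56 in RIPK3 triple KO livers and 6.83 to 7.94 in WT livers. That of 12 neutrophil and myeloid precursor markers was 6.17 to 7.90 in RIPK3 triple KO livers and 7.70 to 9.22 in WT livers. No gene of either list passed. All 12 myeloid markers were lower than in WT (median −1.24), 10 of them (83.3%) at an unadjusted p under 0.05, against 15.6% of all genes. All 9 erythroid markers were lower (median −1.045), 3 of them (33.3%) at that level. Relative to the RIPK3 triple KO, all 12 and all 9 were higher in the IKKβ triple KO (medians 1.16 and 1.03). There 10 and 2 of them had an unadjusted p under 0.05, against 16.7% of all genes. Biliary markers lay the other way, on average higher in the RIPK3 triple KO than in WT. The mean of 6 measured of 7 was 5.57 to 6.14 in RIPK3 triple KO livers and 5.10 to 5.70 in WT livers, and all 6 were higher in the RIPK3 triple KO (median 0.43), of which Sox9 (1.10, adjusted p = 0.00072) and Epcam (0.67, 0.0461) passed. Against WT the TRAF2/Casp-8 KO, with a biliary mean of 5.62 to 5.97, had 3 of the 6 called, all higher (Cldn7, Sox9 and Epcam). The 6 did not move together in that comparison, with 4 above 0 and 2 below, from −0.97 to 1.35 (median 0.48). In IKKβ triple KO livers the biliary mean was 4.98 to 5.74, and all 6 were lower than in the RIPK3 triple KO (median −0.49), with Sox9 the 1 that passed (−0.91, adjusted p = 0.00612). Of 8 T and NK cell markers, Gzma passed in RIPK3 triple KO relative to WT (−0.70, adjusted p = 0.00448). The 8 were mixed in sign there, with 3 above 0 and 5 below (median −0.06). Their mean was 4.70 to 4.95 in RIPK3 triple KO livers and 4.62 to 5.22 in WT livers. The part of these cells in the differences of the 37 genes was not tested. The hepatocyte marker mean was 12.68 to 12.97 in RIPK3 triple KO livers and 12.82 to 13.02 in WT livers. In whole liver, fewer cells of a type and less RNA per cell cannot be told apart.

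IKKβ triple KO against WT gave 0 calls of the 37 by limma, where 0.0372% of all genes were called. Unadjusted, 5 genes (13.5%) had a p under 0.05, all lower, against 1214 of all genes (6.45%), 692 of them lower. The median difference was −0.11, against −0.01 over all genes, with 5 of 37 above 0, and 2 genes (5.41%, Acadm and Etfa) did not overlap, where 3.92% of all genes did not. IKKβ triple KO against RIPK3 triple KO, the direct test between the triple knockouts, called G0s2 alone (2.70% of the 37), where 2% of all genes were called, a share near that of all genes. At an unadjusted p under 0.05 there were 9 genes (24.3%), 8 higher in the IKKβ triple KO and Ppargc1a lower, against 3145 of all genes (16.7%), 1482 of them higher. Of the 37, 5 (13.5%) did not overlap, where 9.01% of all genes did not. Those were Cidec, Fabp1, G0s2 and Plin5, higher, and Ppargc1a, lower. Without RIPK3 triple KO replicate 1, Fabp1 (adjusted p = 0.0312) and Plin2 (0.0437) passed as well.

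**Figure D4:**
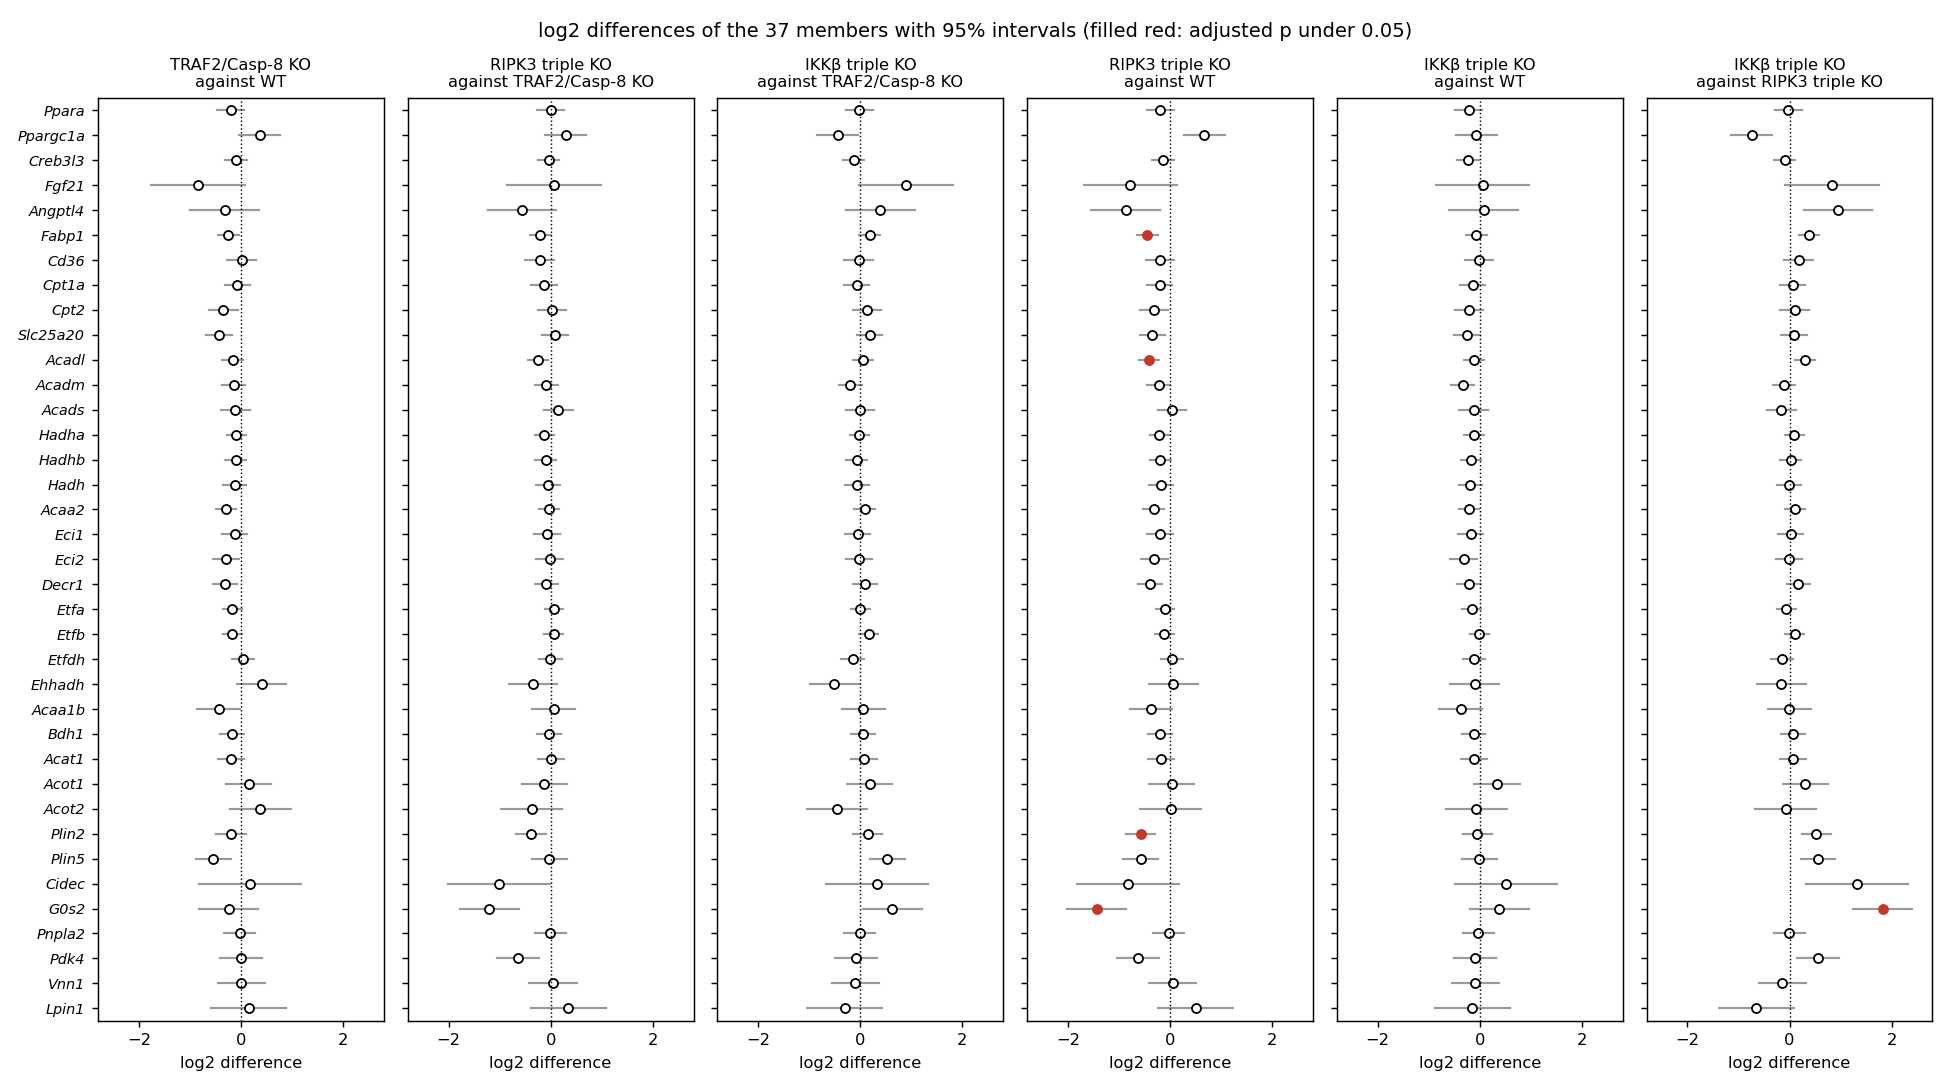
Log2 difference (horizontal axis) of each of the 37 genes, grouped by role from top to bottom, with its 95% interval in each of the 6 comparisons; red filled points had an adjusted p under 0.05. The only filled points are G0s2, Plin2, Fabp1 and Acadl in RIPK3 triple KO against WT and G0s2, at 1.82, in IKKβ triple KO against RIPK3 triple KO.

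Genes differed in how much they varied between animals of a genotype. The within-genotype SD was 0.73 for Cidec, 0.67 for Fgf21, 0.54 for Lpin1, 0.49 for Angptl4, 0.43 for Acot2 and 0.42 for G0s2, all above the 97th percentile of the 18820 genes, whose median SD was 0.166. At the other end were Hadha (0.111), Etfb (0.107) and Etfa (0.103), the last at the 8.83 percentile.

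Single animals carried many of the genes up or down together. In RIPK3 triple KO replicate 4, 25 of the 37 genes were the lowest of their genotype, with a median deviation of −0.21 from the genotype mean, and in WT replicate 1, 24 were the lowest, with a median of −0.16. In IKKβ triple KO replicate 1, 23 were the highest and 0 the lowest, with a median of 0.16, and replicates 3 and 4 of that genotype held 18 and 15 of the lowest values. Markers of other cells were uneven over these animals, and not always in step with the 37 genes. The erythroid mean was 7.56 in RIPK3 triple KO replicate 4, against 5.27 to 5.76 in the others of its genotype, and 7.78 and 8.03 in IKKβ triple KO replicates 3 and 4, against 6.70 and 6.10 in replicates 1 and 2. In WT replicate 1 the neutrophil and myeloid precursor mean was 9.22, against 7.70 to 8.02 in the other WT livers. By contrast, WT replicate 2 had an erythroid mean of 7.94, against 6.83 to 6.93 in the other WT livers, and held 3 of the lowest values. TRAF2/Casp-8 KO replicate 4, with an erythroid mean of 7.70 against 5.95 to 6.97 in its genotype, held 11 of the highest and 11 of the lowest. The part of these cells in the deviations was not tested.

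**Figure D5:**
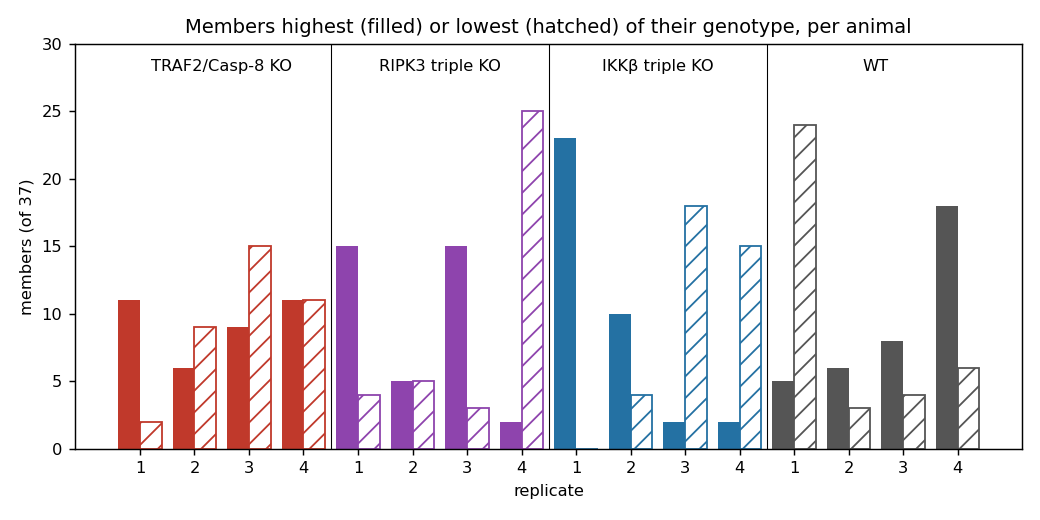
Number of the 37 genes (vertical axis) that were highest (filled bars) or lowest (hatched bars) of their genotype in each of the 16 livers (horizontal axis, replicate within genotype). RIPK3 triple KO replicate 4 held 25 lowest values, WT replicate 1 held 24, and IKKβ triple KO replicate 1 held 23 highest.

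Other genes of fatty acid metabolism were read from a list of 85, of which 74 were measured. In TRAF2/Casp-8 KO relative to WT, 4 of the 74 (5.41%) fell and 0 rose, where 3.31% of all genes were called. The median difference was −0.18, against −0.01 over all genes. At an unadjusted p under 0.05 there were 23 of the 74 (31.1%), 22 of them lower, against the 16.4% of all genes given above, of which 1469 of 3089 were lower. Mgll, monoacylglycerol lipase, was 7.91, 8.23, 7.80 and 7.99 in TRAF2/Casp-8 KO livers, against 8.81, 8.84, 9.05 and 9.02 in WT livers, without overlap (−0.95 ± 0.15, adjusted p = 0.00214). Rxra, the partner of PPARα in its dimer, was 9.19, 9.23, 9.12 and 9.06 in TRAF2/Casp-8 KO livers, against 9.57, 9.59, 9.62 and 9.72 in WT livers, also without overlap (−0.47 ± 0.08, adjusted p = 0.0042). Both calls held with any 1 of the 8 arrays left out. The other two were Hsd17b10, a mitochondrial hydroxyacyl-CoA dehydrogenase (−0.50 ± 0.11, adjusted p = 0.0214), and Scp2, which codes for a peroxisomal thiolase and sterol carrier (−0.50 ± 0.11, adjusted p = 0.0319). Hsd17b10 missed the threshold without WT replicate 2 or 3 or TRAF2/Casp-8 KO replicate 3 or 4 (adjusted p up to 0.0812), and Scp2 without WT replicate 2, 3 or 4 or TRAF2/Casp-8 KO replicate 2 or 4 (up to 0.109). The count for TRAF2/Casp-8 KO against WT was 9 without WT replicate 1 and 2 without WT replicate 2, without WT replicate 3 or without TRAF2/Casp-8 KO replicate 4.

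Of the 74, 0 passed by limma in RIPK3 triple KO against TRAF2/Casp-8 KO. There 11 (14.9%) had an unadjusted p under 0.05, 8 of them higher, against 11.1% of all genes. None passed in IKKβ triple KO against TRAF2/Casp-8 KO, with 14 (18.9%) unadjusted, 9 of them higher, against 10.7% of all genes. None passed in IKKβ triple KO against WT either, with 14 (18.9%) unadjusted, 1 of them higher, against 6.45% of all genes. In RIPK3 triple KO relative to WT, 26 of the 74 (35.1%) had an unadjusted p under 0.05, 21 of them lower, against 15.6% of all genes. At the adjusted threshold 3 of the 74 (4.05%) fell, a share near the 3.11% of all genes. They were Acsl5, an acyl-CoA synthetase (−0.43, adjusted p = 0.0179), Abhd5, the activator of ATGL (−0.50, 0.0193), and Mgll (−0.64, 0.0326). That count was 7 without WT replicate 1, 1 without RIPK3 triple KO replicate 1, WT replicate 2 or RIPK3 triple KO replicate 3, and 0 without WT replicate 3 or WT replicate 4. Between the triple knockouts 16 of the 74 (21.6%) had an unadjusted p under 0.05, against 16.7% of all genes. Of the 74, 2 passed (2.70%), near the 2% of all genes. Abhd5 was higher in the IKKβ triple KO (0.49, adjusted p = 0.0301) and Pccb, a subunit of propionyl-CoA carboxylase, was lower (−0.49, 0.022). That count was 4 without IKKβ triple KO replicate 1, 1 without RIPK3 triple KO replicate 1 or IKKβ triple KO replicate 3, and 0 without RIPK3 triple KO replicate 3 or without IKKβ triple KO replicate 2 or 4. Acsl5, Abhd5 and Pccb were chosen after their values were seen. Abhd5 was 7.42, 7.82, 7.54 and 7.59 in RIPK3 triple KO livers, and 7.93, 7.94, 8.26 and 8.26 in WT livers. With 1 array left out at a time, the limma call of Abhd5 in RIPK3 triple KO relative to WT was lost in 4 of 8 fits (adjusted p up to 0.0708). That of Acsl5 was lost in 5 (up to 0.065) and that of Mgll in 6 (up to 0.101). In the main model the inhibitor (G0s2) and the activator (Abhd5) of ATGL both fell in the RIPK3 triple KO relative to WT, while Pnpla2 did not pass.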

How the data were processed

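Whole-liver RNA of 16 mice was measured on one-colour arrays. The deposited values are log2 signals that the authors made with RMA, per the submitters' processing notes; the sources used here give neither its version and software nor the definition of the probe sets. Values of 0.89 to 13.65 set the log base. The 16 value columns all entered, which left 0 per-sample columns unused. Medians of the arrays were 4.90 to 5.05.

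No further normalisation or filter was applied. Of 35556 probe sets, 21218 carry 1 symbol, 1881 several and 12457 none. The test was a two-sided limma model of all 16 arrays (version 3.58.1, under R 4.3.3; lmFit, then eBayes with no trend), with Benjamini-Hochberg adjustment over all probe sets and a threshold of 0.05. Plots used matplotlib 3.10.9 (Python 3.11.15).

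The listed genes, the other pathway genes and the markers were chosen with earlier results of these data known. Per-array values are given for each listed gene past the threshold in any of 6 comparisons, filled up to 12 by the smallest adjusted p in the 3 comparisons of TRAF2/Casp-8 KO with WT and of each triple KO with TRAF2/Casp-8 KO. Those 12 were Acadl, Plin2, G0s2, Fabp1, Slc25a20, Plin5, Acaa2, Decr1, Cpt2, Pdk4, Eci2 and Acaa1b. The values of Cidec, Fgf21, Angptl4 and Ppargc1a per array were added after they were seen. Pathway genes past the threshold in those 3 comparisons were named.

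Replicate numbers were checked for pairing: over the 6 comparisons, deviations of same-numbered arrays correlated between −0.102 and 0.159, with 3 of 4 pairs over 0.1 in IKKβ triple KO against TRAF2/Casp-8 KO, 1 of 4 in RIPK3 triple KO against TRAF2/Casp-8 KO and 0 in the others; in no comparison were all 4 over 0.1, so the numbers were not taken to pair samples. By the array names, plate column 5 held WT and IKKβ triple KO and column 7 the other two genotypes, while rows A to D held RIPK3 triple KO and WT and rows E to H the rest. This reading was not checked against a layout. Marker lists of T and NK cells, adipocytes, stellate and endothelial cells had means of 4.62 to 5.38, 3.01 to 3.35, 8.65 to 9.19 and 8.98 to 9.29 over the arrays. Proteins were not used here.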

Additional observations from a re-analysis of the deposited data

Results flagged for a closer look

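Of 48 sets of 4 arrays (12 genes in 4 genotypes), 4 held 1 array far from the other three by Dixon's criterion, where chance marks about 1 in 20. G0s2 was 9.38 in IKKβ triple KO replicate 3, against 9.91 to 9.99 in the others of its genotype. Decr1 was 9.79 in WT replicate 1, against 10.04 to 10.05. Cpt2 was 8.38 in TRAF2/Casp-8 KO replicate 2, against 8.61 to 8.65. Acaa1b was 10.14 in IKKβ triple KO replicate 1, against 9.42 to 9.50.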

How the results depend on the processing

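No alternative turned the direction of a called gene. The share of all genes called under each alternative is not given, so the counts below are not set against it. The counts of calls among the 37 genes, main value 0 for TRAF2/Casp-8 KO against WT, 0 for RIPK3 triple KO and 0 for IKKβ triple KO against TRAF2/Casp-8 KO, 4 for RIPK3 triple KO against WT and 1 for IKKβ triple KO against RIPK3 triple KO, moved as follows; the causes were not tested. With an intensity trend and robust eBayes, IKKβ against RIPK3 triple KO gave 2 genes, and the 74 pathway genes gave 7 for RIPK3 triple KO against WT (main 3). With only the 2 genotypes compared, RIPK3 triple KO against WT gave 0 of the 37 and 0 of the 74, and IKKβ against RIPK3 triple KO gave 2 and 0 (main 2 of the 74). Leaving out the dimmer part (1 of 3) of the probe sets, RIPK3 triple KO against WT gave 8 of the 74 and IKKβ against RIPK3 triple KO 3 of the 37. Quantile normalisation again gave 7 of the 74 for RIPK3 triple KO against WT. Array weights gave 3 of the 37 and 12 of the 74 for TRAF2/Casp-8 KO against WT (main 4 of the 74), 1 of the 37 for RIPK3 triple KO against TRAF2/Casp-8 KO, 2 of the 74 for IKKβ triple KO against TRAF2/Casp-8 KO, 6 of the 74 for RIPK3 triple KO against WT and 2 of the 37 for IKKβ against RIPK3 triple KO. The mean of all probe sets of a gene, which adjusts over fewer rows, gave 2 of the 37 and 8 of the 74 for TRAF2/Casp-8 KO against WT, 1 of the 37 for RIPK3 triple KO against TRAF2/Casp-8 KO, 1 of the 74 for IKKβ triple KO against TRAF2/Casp-8 KO, 8 of the 74 for RIPK3 triple KO against WT, and 3 of the 37 and 4 of the 74 for IKKβ against RIPK3 triple KO. A minimum of 1.5-fold left 1 of the 74 for TRAF2/Casp-8 KO against WT, 1 of the 37 and 1 of the 74 for RIPK3 triple KO against WT and 0 of the 74 between the triple knockouts. With the replicate number as a block (replicate block), although the numbers were not taken to pair samples, RIPK3 triple KO against WT gave 2 of the 37 (Fabp1 and G0s2). With WT replicate 1 and RIPK3 triple KO replicate 4 both left out, chosen after seeing the data, TRAF2/Casp-8 KO against WT gave 4 of the 37 and 9 of the 74, IKKβ triple KO against TRAF2/Casp-8 KO 1 of the 74, RIPK3 triple KO against WT 2 of the 37 and IKKβ against RIPK3 triple KO 4 of the 74. Centring each array on its median and the plate row as a random block (correlation 0.0133) moved no count by over 1.5 times; after centring, Plin2 no longer passed in RIPK3 triple KO against WT (adjusted p = 0.0529). Leaving out 1 array at a time, the 37 genes gave 0 to 1 calls for TRAF2/Casp-8 KO against WT, for RIPK3 triple KO against TRAF2/Casp-8 KO and for IKKβ triple KO against TRAF2/Casp-8 KO, 1 to 7 for RIPK3 triple KO against WT and 1 to 3 for IKKβ against RIPK3 triple KO; the 74 gave 2 to 9 for TRAF2/Casp-8 KO against WT, 0 to 7 for RIPK3 triple KO against WT and 0 to 4 for IKKβ against RIPK3 triple KO. TRAF2/Casp-8 KO replicate 4 has another array-name prefix and was kept. The arrays carry no flags for background or saturation in the values used here, so limits of detection were not set.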

Other observations

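Ppargc1a has a second, dimmer probe set with 1 symbol, which averaged 6.26 in TRAF2/Casp-8 KO, 6.27 in RIPK3 triple KO, 5.73 in IKKβ triple KO and 5.78 in WT livers. Its differences were 0.49 between RIPK3 triple KO and WT (limma adjusted p = 0.243) and −0.54 between IKKβ triple KO and RIPK3 triple KO (0.19), the same signs as the brighter probe set, and neither passed.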
